A study of Mus musculus with 6 samples.

Results

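Antibody-drug conjugates and related immunotherapies reach a tumor cell through a protein on its surface, and 9 such proteins other than the ErbB receptors and the STEAP family were followed here at the mRNA level. The genes were *FOLH1*, *CD276*, *NECTIN4*, *F3*, *CD46*, *PSCA*, *CEACAM5*, *DLL3* and *FOLR1*. They were taken by symbol from the deposited table of 58735 genes, in which each symbol occurred once. The comparison was between 22Rv1 cells given vehicle (parental, 3 libraries) and 22Rv1 cells cultured with rising concentrations of BL-B01D1 (resistant subline BL-B01D1_R, 3 libraries). 22Rv1 cells come from a human prostate carcinoma and express the androgen receptor. BL-B01D1 is a bispecific antibody-drug conjugate against EGFR and HER3 that carries a camptothecin-type topoisomerase I inhibitor, so none of the 9 genes encodes its own target. The subline came from 1 selection, and the libraries of a group therefore measure the spread within 1 line and not that of repeated selections. The sources used here do not state whether the drug was present when RNA was taken. The organism field of the labels reads mouse, but the table carries human gene identifiers.

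How well a surface target serves such a drug depends in part on how much of it the cell displays. It also depends on how evenly the cells display it and how fast it is taken up with the antibody. The 9 proteins are otherwise unrelated in function: *FOLH1* encodes prostate-specific membrane antigen (PSMA), a zinc peptidase of prostate epithelium; *CD276* encodes the immune checkpoint ligand B7-H3; *NECTIN4* encodes an adhesion protein; *F3* encodes tissue factor, the starter of blood coagulation; *CD46* encodes a complement regulator; *PSCA*, *CEACAM5* and *FOLR1* encode proteins held in the membrane by a glycosylphosphatidylinositol (GPI) anchor; and *DLL3* encodes an inhibitory Notch ligand. In prostate cancer, PSMA is the established target of imaging and radioligand therapy, and *DLL3* and *CEACAM5* are mostly associated with neuroendocrine tumors.

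Counts on genes totaled between 13821639 and 17251491 per library. At this depth, 3 counts, the upper limit that a count of 0 allows, correspond to 0.174 to 0.216 CPM (read counts relative to the TMM-scaled library size), and this limit covers counting error only. Replicate libraries differed by more than sampling noise (within groups, chi-square divided by its degrees of freedom lay between 1.77 and 2.46), so all 6 were kept as separate samples. All 8 luminal prostate markers examined were expressed, with a summed level of 2751 to 2801 CPM in parental and 2865 to 2917 CPM in resistant libraries. Endothelial markers summed to at most 0.185 CPM. Of the fibroblast list, *COL1A2* and *PDGFRB* were near 0 while the summed level was 111 to 115 CPM in parental and 39.1 to 43.8 CPM in resistant libraries, mainly through *LUM*. The fall was not limited to that gene. By the test described below, 3 of the 5 fibroblast genes could be tested, and their median log2 fold change was −0.46. Of the 3, 2 were lower and 0 higher at FDR under 0.05, against 18.4% and 17.1% of all genes tested. The part of this fibroblast difference in the results below was not tested. In such bulk libraries, fewer cells expressing a gene and less RNA of it per cell cannot be told apart.

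Of the 9 genes, 7 had enough counts to be tested. *PSCA* was the single target called lower by the study's thresholds, which require both FDR under 0.05 and a log2 fold change beyond 1 in either direction. *F3*, *CD276* and *DLL3* were lower at FDR under 0.05 with smaller changes, *FOLH1* was slightly higher, and *CD46* and *NECTIN4* did not pass the test. Thus 4 of 7 were lower and 1 was higher at that FDR, against 18.4% and 17.1% of all 17142 genes tested. *DLL3* lost significance in 8 of 14 alternatives, which left 3 lower. By the full call, 1 of 7 was lower and 0 were higher, against 2.84% and 2.53% of all genes. Groups did not overlap in the genes that passed at that FDR, 4 with lower and 1 with higher resistant values. Among all genes tested these shares were 22.8% and 22.1%. The median log2 fold change was −0.32 over the 7 genes and 0.0038 over all genes tested. The plot of fold changes shows the same order with its errors. FDR values here and below are Benjamini-Hochberg adjusted values of edgeR's quasi-likelihood test over all genes tested, since 3 libraries against 3 cannot give an exact permutation p under 0.1.

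**Figure D1:**
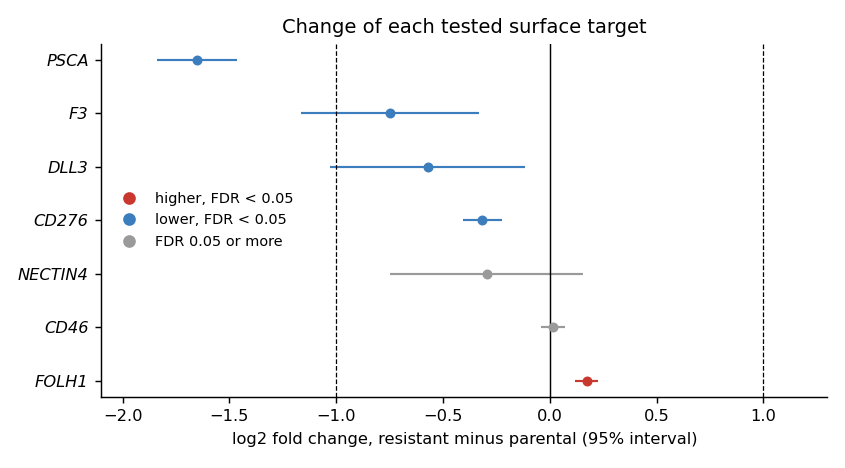
Log2 fold change (resistant minus parental, horizontal axis) of the 7 tested surface targets, with 95% intervals from edgeR's fit. Dashed lines mark an absolute value of 1. *PSCA*, at −1.65, is the only gene whose interval lies entirely beyond a dashed line, and the intervals of *CD46* and *NECTIN4* include 0.

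Compared per length, the targets spanned more than 2 orders of magnitude. In FPKM (CPM divided by the gene length in kilobases), parental cells held 171 ± 6.69 (SD, n = 3) of *FOLH1*, 45.0 ± 1.36 of *CD46*, 18 ± 1.03 of *CD276*, 15.7 ± 0.71 of *PSCA*, 1.48 ± 0.23 of *F3*, 1.28 ± 0.022 of *DLL3* and 0.93 ± 0.18 of *NECTIN4*. By these mean levels, *FOLH1* stood above 99.1% of the genes tested and *CD46* above 94.4%, whereas *F3*, *DLL3* and *NECTIN4* stood above 28.3%, 25.8% and 20.5%. The order was the same in resistant cells, where the levels were 193 ± 5.32 (*FOLH1*), 45.5 ± 0.45 (*CD46*), 14.4 ± 0.36 (*CD276*), 4.996 ± 0.16 (*PSCA*), 0.88 ± 0.041 (*F3*), 0.86 ± 0.17 (*DLL3*) and 0.75 ± 0.083 FPKM (*NECTIN4*). Neighbors in this order had separate ranges over the 3 libraries, with the exceptions of *F3* and *DLL3* in both groups and of *DLL3* and *NECTIN4* in resistant cells. *CD276* and *PSCA* lay close together in parental cells, at a ratio of means of 1.15, and apart in resistant cells, at a ratio of 2.89. *PSCA* moved from above 81.1% to above 53.3% of the genes tested.

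**Figure D2:**
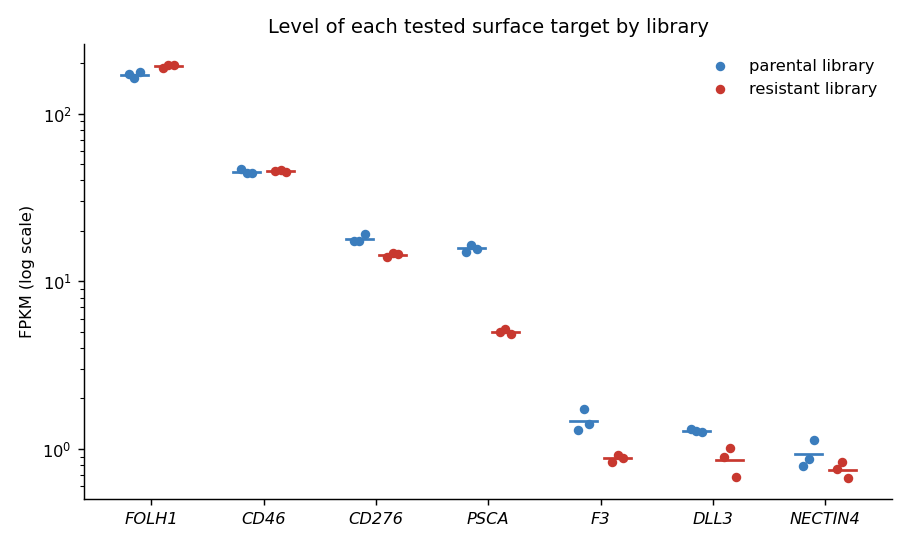
FPKM (vertical axis, log scale) of the 7 tested surface targets in each library. Points are libraries and bars are means of 3. *FOLH1* lies between 164 and 196 FPKM in all libraries, while the resistant libraries of *PSCA* fall to between 4.86 and 5.17 FPKM from 15.04 to 16.45 in parental libraries.

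The summed FPKM of the 9 targets was 254 ± 7.27 in parental and 260 ± 5.92 in resistant cells (SD, n = 3), with overlapping libraries. Its composition shifted. *FOLH1* made up 67.5% ± 0.71 of it in parental and 74.1% ± 0.45 in resistant cells, and *PSCA* 6.20% ± 0.42 and 1.92% ± 0.059. For scale, the genes of the drug's own targets, chosen for this purpose after their values were seen, stood at 4.26 ± 0.12 FPKM (*EGFR*) and 17.8 ± 0.46 FPKM (*ERBB3*) in parental cells and at 5.54 ± 0.17 and 16.5 ± 0.26 FPKM in resistant cells. *ERBB3* was thus expressed at about the level of *CD276* in parental cells, and no test was made between these genes. Between the lines, the log2 fold change was 0.38 for *EGFR* (FDR 9.96e-08) and −0.11 for *ERBB3* (FDR 0.0143), both from edgeR. The study reports HER3 as markedly lower in the resistant subline, by immunoblot and by quantitative RT-PCR of its mRNA.

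*PSCA* (ENSG00000167653, chromosome 8 of hg38, 142670308 to 142682724, forward strand) encodes prostate stem cell antigen, a small GPI-anchored protein of the LY6 family. Parental libraries 1, 2 and 3 had 26.5, 29.0 and 27.5 CPM, from 457, 487 and 382 counts. Resistant libraries 1, 2 and 3 had 8.75, 9.11 and 8.57 CPM, from 145, 134 and 139 counts. Every resistant library was below every parental library, and the gap between the groups was far wider than the range within either. The log2 fold change was −1.65 (SE 0.092, 95% interval −1.84 to −1.47, FDR 1.33e-18 from edgeR), a 3.14-fold lower level in resistant cells. Leaving out single libraries gave −1.68 to −1.62. In size, this change ranked 152 among the 487 genes called lower.

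*JRK*, on the opposite strand, covers 11661 of the 12417 bases between the ends of *PSCA*. The sources used here do not state whether counting used strand, so reads in shared exons could not be told apart. *JRK* counted 912 to 1265 reads per library and had a log2 fold change of −0.17 (SE 0.057, FDR 0.0181 from edgeR), which lost significance in 5 of 14 alternatives.

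The table lists 24 genes within 250 kb of *PSCA*, of which 5 were tested. Of these, 4 were lower in resistant cells, 2 of them called, and 0 were higher, where 18.4% of all genes tested were lower and 2.84% were called lower. *ARC*, which encodes a neuronal activity-regulated cytoskeletal protein, lies 55.8 kb before *PSCA*. It had 5.98, 4.94 and 6.05 CPM in parental libraries and 1.27, 1.22 and 0.80 CPM in resistant libraries, a log2 fold change of −2.36 (SE 0.23, FDR 4.47e-11). *ADGRB1*, which encodes the adhesion G protein-coupled receptor BAI1, lies 125.3 kb before *PSCA*. It fell from 26.2 ± 1.26 to 12.01 ± 1.14 CPM (SD, n = 3), a log2 fold change of −1.13 (SE 0.090, FDR 9.27e-14). *THEM6* had a log2 fold change of −0.17 (FDR 0.0181), and this too lost significance in 5 of 14 alternatives. *LYNX1*, the only LY6 family gene of the window with enough counts to be tested, did not pass, with a log2 fold change of 0.19 (SE 0.196). None of the other 8 targets had a called gene within 250 kb, where 2.84% of all genes tested were called lower and 2.53% higher. At FDR under 0.05, the window of *NECTIN4* had 4 higher and 0 lower of 19 tested genes. That of *CD276* had 0 higher and 2 lower of 5, and those of *F3* and *CD46* each 1 higher and 0 lower of 2. Higher and lower genes were 1 and 1 of 5 for *CEACAM5*, 1 and 1 of 11 for *DLL3* and 2 and 2 of 10 for *FOLR1*. The windows of *CD276*, *NECTIN4*, *F3*, *CD46*, *CEACAM5*, *DLL3* and *FOLR1* held between 2 and 19 tested genes with medians from −0.053 to 0.46, and that of *FOLH1* held 0 tested genes among 22.

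**Figure D3:**
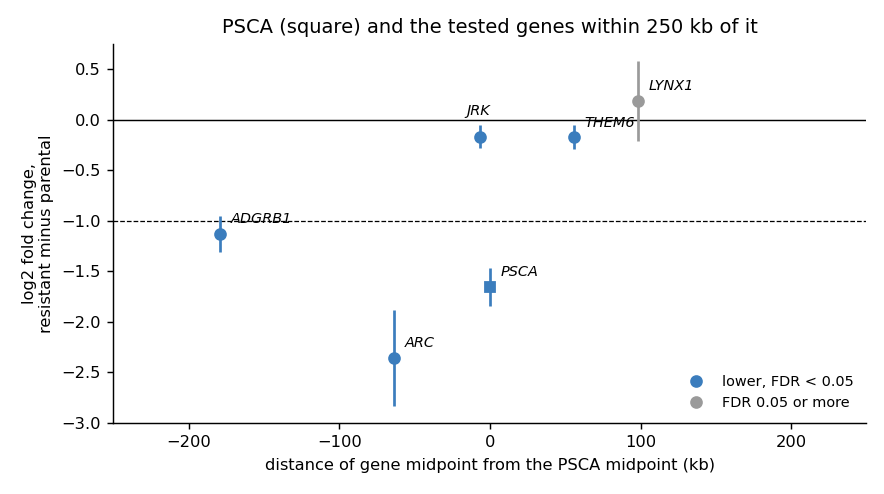
Log2 fold change (resistant minus parental, vertical axis, with 95% intervals) of *PSCA* (square) and of the 5 tested genes within 250 kb (circles), by distance of the gene midpoint from that of *PSCA*. The dashed line marks −1. *ARC* and *ADGRB1*, on one side of *PSCA*, lie below it, at −2.36 and −1.13, whereas *JRK*, *THEM6* and *LYNX1* lie between −0.17 and 0.19.

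Of 15 further genes of the LY6 and urokinase receptor family, 6 were tested. In resistant cells, 2 were lower and 0 were higher, against 18.4% and 17.1% of all genes tested. The other 4 did not pass, and the median log2 fold change was −0.050. *LY6E*, a GPI-anchored protein that has itself been targeted with conjugates, lies 335.3 kb after *PSCA* on chromosome 8. It went from 28.4, 24.4 and 23.4 CPM in parental to 11.9, 12.9 and 11.7 CPM in resistant libraries, with no overlap. Its log2 fold change was −1.07 (SE 0.093, FDR 1.07e-12), which fell short of the fold threshold without parental library 1 (−0.98). *PLAUR*, the urokinase receptor on chromosome 19, fell as well, with a log2 fold change of −0.73 (SE 0.14, FDR 3.89e-05).

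*FOLH1* (ENSG00000086205, chromosome 11, 49146635 to 49208670, reverse strand) rose slightly from a high level. Parental libraries had 656, 629 and 680 CPM and resistant libraries 714, 750 and 748 CPM. The groups did not overlap, although the gap between them was smaller than the range of the parental libraries. Its log2 fold change was 0.17 (SE 0.028, 95% interval 0.12 to 0.23, FDR 2.40e-06 from edgeR), an increase of 12.6%. Leaving out single libraries gave 0.14 to 0.20. *FOLH1B*, a near-identical relative elsewhere on chromosome 11, took between 1.198% and 1.49% of the counts summed over both genes. Because the pair share sequence, the split of reads between them is uncertain. Its log2 fold change was 0.33 (SE 0.12, FDR 0.0302), no longer significant in 6 of the 13 alternatives that tested it. Of the 4 related peptidase genes, 3 were tested. Among these 1 (*FOLH1B*) was higher and 0 were lower, against 17.1% and 18.4% of all genes tested. Their median was 0.13.

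*CD276* (ENSG00000103855, chromosome 15, 73683966 to 73714518, forward strand) was lower by a modest and precisely measured amount. Parental libraries had 95.9, 97.0 and 106 CPM and resistant libraries 77.8, 81.3 and 81.0 CPM. Parental library 3 was the highest, and the groups did not overlap. The log2 fold change was −0.32 (SE 0.045, 95% interval −0.41 to −0.22, FDR 2.98e-07) and the fits without 1 library gave −0.34 to −0.27. Of 8 other genes of the B7 family, whose proteins bind receptors on immune cells, 3 were tested. In this family 1 was lower and 0 were higher, against 18.4% and 17.1% of all genes tested. The median, −0.39, was the value of *CD274*, a gene with an FDR of 0.582 from edgeR. The gene that fell was *NCR3LG1*, which encodes B7-H6, a ligand of an activating receptor of natural killer cells, with a change from 74.3 ± 2.12 to 54.6 ± 0.13 CPM (SD, n = 3; log2 fold change −0.44, SE 0.0498, FDR 1.18e-09). *CD274* (PD-L1) and *ICOSLG* did not pass, and *CD80*, *CD86*, *PDCD1LG2*, *VTCN1* and *HHLA2* had too few counts to be tested.

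*F3* (ENSG00000117525, chromosome 1, 94529225 to 94541800, reverse strand) was weakly expressed and lower in resistant cells. It had 64, 84 and 56 counts in parental libraries (3.71, 5.00 and 4.03 CPM) and 40, 39 and 41 counts in resistant libraries (2.41, 2.65 and 2.53 CPM). The resistant libraries were close together and all below the parental ones, of which library 2 was the highest. This was a log2 fold change of −0.75 (SE 0.21, 95% interval −1.17 to −0.33, FDR 0.00363 from edgeR). Without parental library 2 it was −0.61 (FDR 0.0413), the weakest of the fits that left out a library. Tissue factor binds coagulation factor VII, and the resulting proteases signal through protease-activated receptors. Of 10 genes of this pathway, 4 were tested, with a median of 0.025. Of the 4, 1 was higher and 1 lower, against 17.1% and 18.4% of all genes tested. *TFPI*, the inhibitor of the tissue factor complex, rose from 18.1, 15.2 and 16.8 CPM to 34.0, 33.0 and 28.8 CPM (log2 fold change 0.93, SE 0.084, FDR 2.78e-12), and reached the fold threshold without parental library 1 or resistant library 3 (at most 1.006). *F2R*, the thrombin receptor PAR1, fell from 7.25, 7.03 and 7.78 CPM to 1.99, 1.77 and 2.77 CPM (log2 fold change −1.74, SE 0.19, FDR 3.59e-10) and was called. *F2RL1* and *F2RL3*, which encode the receptors PAR2 and PAR4, did not pass. The genes of the factors themselves, *F7* and *F10*, had 0 counts in all libraries.

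*DLL3* (ENSG00000090932, chromosome 19, 39498895 to 39508481, forward strand) passed the test narrowly. It had 59, 56 and 46 counts in parental libraries (3.42, 3.34 and 3.31 CPM) and 39, 39 and 29 counts in resistant libraries (2.35, 2.65 and 1.79 CPM). The parental libraries were almost equal, the resistant libraries were spread, and the groups did not overlap. Between the groups the log2 fold change was −0.57 (SE 0.23, 95% interval −1.03 to −0.12, FDR 0.0447 from edgeR). Significance was lost in 8 of 14 alternatives, 5 of which each left out 1 library, among them DESeq2 (FDR 0.117) and the fit without resistant library 3 (log2 fold change −0.43, FDR 0.194). Of the neuroendocrine markers, 4 were tested, with a median log2 fold change of 0.065. Of the 4, 2 were higher and 1 was lower, against 17.1% and 18.4% of all genes tested. *CHGA*, a granule protein of neuroendocrine cells, fell from 39.4 ± 1.59 to 8.18 ± 0.49 CPM (SD, n = 3), whereas *CHGB*, of the same granin family, rose from 24.2 ± 1.32 to 37.9 ± 1.63 CPM. *ENO2* was higher by 0.089 on the log2 scale (FDR 0.0448 from edgeR) and *SYP* did not pass (0.041). The summed level of the neuroendocrine markers was 316 to 323 CPM in parental and 307 to 319 CPM in resistant libraries.

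Of 6 other Notch ligand genes, 4 were tested, with a median of 0.22. Of the 4, 1 was lower and 0 were higher, against 18.4% and 17.1% of all genes tested. The lower gene was *JAG2*, with 62.4 ± 2.34 CPM in parental and 48.4 ± 0.20 CPM in resistant cells (SD, n = 3; log2 fold change −0.37, SE 0.054, FDR 4.70e-07). Of 15 genes for Notch receptors, their sugar-modifying enzymes and factors of the HES and HEY families and their kin, 13 were tested. Here 6 were lower and 1 was higher, against 18.4% and 17.1% of all genes tested. The other 6 did not pass, and the median was −0.18. *HEYL*, a Notch-responsive repressor, was the gene called, and it fell from 59, 61 and 48 counts to 26, 19 and 19 counts (log2 fold change −1.38, SE 0.25, FDR 1.77e-05). *HEY1*, of the same repressor family, moved the other way, from 47, 46 and 35 counts to 87, 63 and 92 counts (log2 fold change 0.93, SE 0.19, FDR 1.58e-04), and reached the fold threshold without resistant library 2 (1.03). *LFNG*, a glycosyltransferase acting on Notch receptors, was lower (−0.45, SE 0.14, FDR 0.00916), and not significantly so without parental library 3 or resistant library 1 (largest FDR 0.104).

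*CD46* (ENSG00000117335, chromosome 1, 207752057 to 207795513, forward strand), the second most abundant target, hardly differed between the lines. Parental libraries had 406, 384 and 387 CPM and resistant libraries 395, 400.4 and 393 CPM. The resistant values lay inside the parental range. The log2 fold change was 0.014 (SE 0.028, FDR 0.746), and its 95% interval of −0.043 to 0.072 leaves room for a change of only a few percent in either direction. Its sign turned with library size alone or without parental library 2. *CD46* shields cells by promoting cleavage of complement fragments. Of 7 other complement regulator genes, 4 were tested, with a median of −0.20. Of the 4, 2 were lower and 2 higher, against 18.4% and 17.1% of all genes tested. *CD55*, the decay-accelerating factor, fell from 41.1 ± 1.04 to 27.9 ± 1.88 CPM (SD, n = 3; log2 fold change −0.56, SE 0.068, FDR 7.83e-09). *CD59*, which blocks the membrane attack complex, rose from 36.3 ± 1.73 to 45.2 ± 2.91 CPM (log2 fold change 0.32, SE 0.064, FDR 1.04e-04). *CR2*, a complement receptor, was called lower at −1.13 (SE 0.32, FDR 0.00509) from at most 41 counts in a library, and fell short of the fold threshold without parental library 2 (−0.97). *CSMD1* was higher at 0.15 (FDR 0.0385), which did not hold in 7 of 14 alternatives.

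*NECTIN4* (ENSG00000143217, chromosome 1, 161070995 to 161089599, reverse strand), the target of the conjugate used in urothelial cancer, had 48, 51 and 55 counts in parental libraries (2.79, 3.04 and 3.96 CPM) and 44, 43 and 38 counts in resistant libraries (2.65, 2.92 and 2.34 CPM). The groups overlapped. Its log2 fold change was −0.30 (SE 0.22, FDR 0.327) and its 95% interval, −0.75 to 0.16, was wide at these counts. Of 9 related genes, namely the other nectins, the poliovirus receptor, the CADM adhesion proteins and their binding partner afadin, 8 were tested. Among them 2 were lower and 1 was higher, against 18.4% and 17.1% of all genes tested. The other 5 did not pass, and the median was −0.080. *NECTIN3* (log2 fold change −0.56, SE 0.0998, FDR 1.32e-05) and *NECTIN1* (−0.35, SE 0.0401, FDR 1.59e-09) were lower without overlap of the libraries. *CADM2*, best known as a synaptic adhesion protein, was called higher, from 2.79, 2.38 and 2.88 CPM to 9.05, 8.43 and 9.31 CPM (log2 fold change 1.74, SE 0.17, FDR 1.74e-11).

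*CEACAM5* (ENSG00000105388, chromosome 19, 41708585 to 41729798, forward strand), which encodes carcinoembryonic antigen, had 0 counts in every library but resistant library 3, which had 1. *FOLR1* (ENSG00000110195, chromosome 11, 72189558 to 72196323, forward strand), which encodes folate receptor alpha, had 0 counts in all 6 libraries. Per library, a count of 0 allows up to 0.0519 to 0.0645 FPKM for *CEACAM5* and 0.106 to 0.131 FPKM for *FOLR1*. The limit does not apply to the library with 1 count of *CEACAM5*. A change of either gene between the lines was not detectable at this depth.

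Of 11 other CEACAM genes, whose paralogs share sequence and whose counts are uncertain for that reason, 2 were tested and 0 passed, with a median log2 fold change of 0.23. These were *CEACAM1* (0.75, SE 0.31, FDR 0.0553) and *CEACAM19* (−0.29, SE 0.29). *CEACAM6*, singled out after its values were seen, had 0 counts in parental libraries and 4, 6 and 10 counts in resistant libraries. The resistant mean, 0.42 CPM, was 2.23 times the 0.19 CPM that 3 counts per parental library would give. That ratio leaves out the counting error of the resistant libraries. *CEACAM6* was too low to be tested in the main comparison. Of 5 other genes of folate uptake, 2 were tested, with a median of −0.025. *SLC19A1*, the reduced folate carrier, was lower at 38.8 ± 1.47 CPM in parental and 33.8 ± 1.84 CPM in resistant cells (SD, n = 3; log2 fold change −0.20, SE 0.066, FDR 0.0150). It lost significance without parental library 1 or resistant library 2. *SLC46A1*, the proton-coupled folate transporter, did not pass (0.15, SE 0.098), and *FOLR2*, *FOLR3* and *IZUMO1R* had too few counts to be tested.

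*PSCA*, *CEACAM5* and *FOLR1* proteins need a GPI anchor to stay on the membrane. Of 28 genes that build or remodel this anchor, 27 were tested, and 17 did not pass. Of the 27, 8 were higher and 2 lower, against 17.1% and 18.4% of all genes tested. None of them was called, and their median log2 fold change was 0.084. Without resistant library 1, the number of higher genes was 5. *GPAA1*, a subunit of the transamidase that attaches the anchor, rose from 209 ± 2.20 to 261 ± 12.3 CPM (SD, n = 3; log2 fold change 0.32, SE 0.033, FDR 1.51e-10). *PIGQ*, which acts in the first step of anchor synthesis, rose by 0.27 (SE 0.068, FDR 0.00131) on the log2 scale. *DPM2* (−0.29, SE 0.055, FDR 3.81e-05) and *DPM1* (−0.21, SE 0.056, FDR 0.00260), subunits of the enzyme that makes the mannose donor, were lower.

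**Figure D4:**
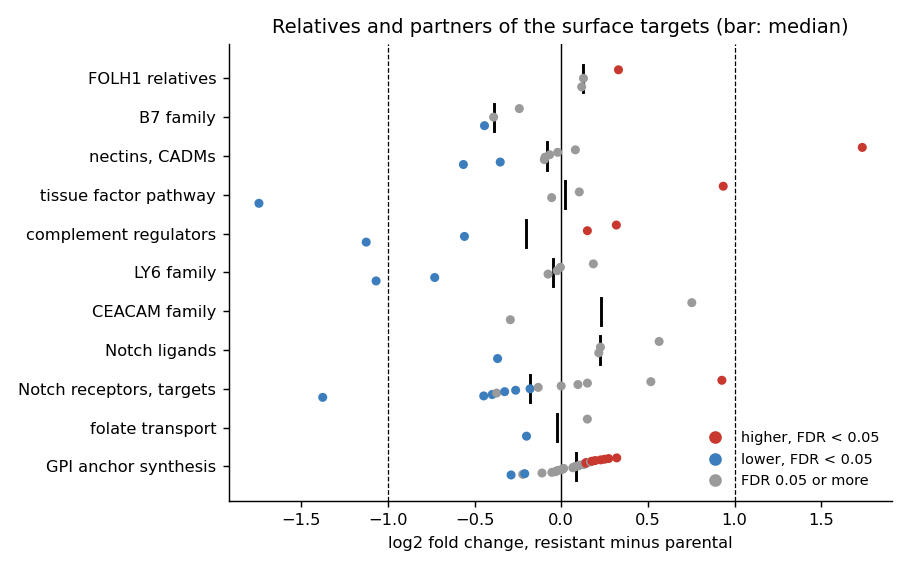
Log2 fold change (resistant minus parental, horizontal axis) of the tested relatives and partners of the surface targets, 1 point per gene and 1 row per list, with the list median as a bar. Colors give direction at FDR under 0.05. List medians lie between −0.39 and 0.23, and the points beyond the dashed lines at −1 and 1 are *F2R*, *HEYL*, *CR2*, *LY6E* and *CADM2*. The outermost medians come from lists with only 3 (B7 family) and 2 (CEACAM family) tested genes.

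Beyond the 9 targets, a list of 46 other antigens of conjugates was read from the same fit. Of these, 27 were tested, and 12 were higher, 11 were lower and 4 did not pass, against 17.1% higher and 18.4% lower among all genes tested. The median log2 fold change was −0.13, with quartiles at −0.45 and 0.46, against −0.16 and 0.18 for all genes tested. By the call, 1 was lower (*LY6E*, above) and 0 were higher, against 2.84% and 2.53% of all genes tested. *GPNMB*, a melanosomal and lysosomal glycoprotein, was the gene with the largest increase, from 3.02, 2.98 and 3.10 CPM to 5.61, 5.92 and 5.92 CPM (log2 fold change 0.94, SE 0.18, FDR 3.75e-05). *BCAM*, the Lutheran blood group antigen and a laminin receptor, followed, with 17.0 ± 0.49 CPM in parental and 32.3 ± 0.98 CPM in resistant cells (SD, n = 3; log2 fold change 0.92, SE 0.077, FDR 3.82e-13). After *LY6E*, the largest decrease was that of *SLC1A5*, a glutamine transporter, from 234, 231 and 229 CPM to 115, 116 and 129 CPM (log2 fold change −0.95, SE 0.038, FDR 8.56e-24). Without resistant library 3 its decrease reached the fold threshold (−1.004).

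**Figure D5:**
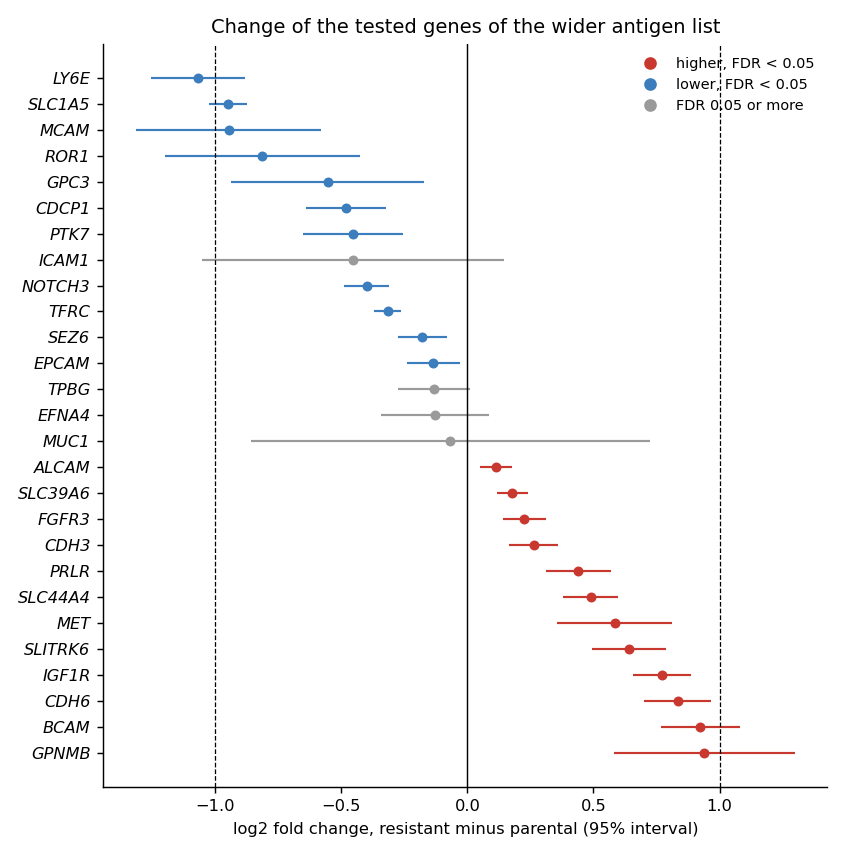
Log2 fold change (resistant minus parental, horizontal axis, with 95% intervals) of the 27 tested genes of the wider antigen list. Colors give direction at FDR under 0.05 and dashed lines mark an absolute value of 1. Values run from −1.07 (*LY6E*) to 0.94 (*GPNMB*), with 11 genes lower and 12 higher.

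For the 3 targets that passed the test with the largest changes, the genes with the most similar profile over the 6 libraries were found by the root mean square difference of centered log2 CPM among 15549 other genes. For *PSCA* these included *VGLL2* (difference 0.047) and *NFIB* (0.063), with log2 fold changes of −1.62 and −1.71. For *F3* they were *CD6* (0.071), *CPNE2* (0.074) and *AC027702.1* (0.075), and for *DLL3* they were *ANK2* (0.066), *CHAC1* (0.073) and *RAB20* (0.073). *AC027702.1* and *CHAC1* did not themselves pass the test, with log2 fold changes of −0.75 and −0.55. The 6 points of a profile form 2 groups, so genes with a fold change of like size come out as most similar.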

How the data were processed

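RNA-Seq of 3 parental and 3 BL-B01D1-resistant 22Rv1 libraries was analysed, grouped by the sample labels. Nothing in the labels says that the libraries of a group were separate cultures, so p-values measure only the spread between these libraries, which may be technical. The authors purified poly-A RNA, mapped reads to hg38 with HISAT2 (2.0.5), counted them per gene with featureCounts (1.5.0-p3) and deposited the raw counts in 1 table, with gene lengths in bases as another quantity. The annotation release and strand setting are not given in the sources used here. The number of unused sample columns was 0.

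From these counts, genes were filtered with filterByExpr, scaled with TMM and tested in edgeR (4.0.16, under R 4.3.3) by its quasi-likelihood test, after a check on simulated data. FPKM was computed from CPM and gene length. The standard error is the log2 fold change divided by the square root of the F statistic. The methods name limma, which was run as an alternative (limma 3.58.1), as was DESeq2 (1.42.0). In all there were 8 alternatives and 6 fits leaving out 1 library.

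The members, gene lists and tests were chosen with earlier results of these data known. All members were named, and from each list the genes called and, in each direction, up to 2 with the largest change at FDR under 0.05. Genes were also named in the windows of 250 kb if called. Genes outside this rule are marked or serve as context. A few genes that these rules would name are not reported here.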

Additional observations from a re-analysis of the deposited data

How the results depend on the processing

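The directions of *PSCA*, *F3*, *CD276*, *DLL3*, *FOLH1* and *NECTIN4* were kept in all 14 alternatives, and each of these but *DLL3* also kept its side of an FDR of 0.05. *DLL3* (−0.57, FDR 0.0447) was not significant with DESeq2 (−0.57, FDR 0.117), without a filter (−0.57, FDR 0.0742) or with the replicate block (−0.57, FDR 0.0561), and ranged from −0.69 to −0.43 with 1 library left out, where 5 of 6 fits lost it. The number of lower targets was then 3 in place of 4. *CD46*, not significant at 0.014, turned to −0.0018 with library size alone and to −0.0025 without parental library 2, within a range of −0.0025 to 0.040 over the fits without 1 library. With 1 library left out, *FOLH1* ranged from 0.14 to 0.20, *CD276* from −0.34 to −0.27, *NECTIN4* from −0.40 to −0.14, *F3* from −0.84 to −0.61 and *PSCA* from −1.68 to −1.62. The wider antigen list had 2 called genes in place of 1 without a filter, where *CEACAM6* was added, and between 1 and 2 with 1 library left out, where *MCAM* or *SLC1A5* passed the fold threshold. Counts within the family lists moved by at most 3 genes in any alternative. Requiring at least 10 counts in every library left 248 genes called higher and 287 lower over all genes. Low counts limit *DLL3*, *NECTIN4* and *F3*, and the cause of the changes above was not tested.

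Same-numbered libraries did not deviate together (correlations of −0.020 to −0.0081), so the replicate numbers were not treated as pairs. The replicate block changed no other target.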
